A study of Mus musculus with 4 samples.

Results

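The 9 genes described here, Msi2, Il1rap, Cd93, Cd33, Il2ra, Cd44, Cd47, Dpp4 and Alox5, have been reported as surface markers or dependencies of the stem cells of chronic myeloid leukaemia (CML). They were chosen by name, and all 9 are among the 32265 genes of the deposited tables. They were measured in single cells from the bone marrow of C57BL/6 mice, sorted for a phenotype without lineage markers and with Sca1 and cKit (LSK), which is the compartment of blood stem cells and multipotent progenitors. The cells were sequenced by inDrop, a droplet method in which each captured transcript is counted by its unique molecular identifier (UMI). There was 1 library for each of 4 groups: wild-type (WT) untreated, WT given imatinib, CML untreated and CML given imatinib. Imatinib, an inhibitor of the ABL and KIT kinases, was given by gavage at 400 mg/kg every other day, for 30 days by one label and for 4 weeks by another. How CML was produced in the mice, their ages, and how many mice were pooled are not given in the sources used here. Nothing could be compared with a spread between mice: the 95% intervals below are exact and hold the counting error of single libraries only, and no p-value was computed.

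CML begins when the BCR-ABL fusion kinase becomes active in a blood stem cell. Kinase inhibitors remove most of the leukaemia but can spare its stem cells, and proteins that mark or sustain those cells have therefore been studied as targets. Msi2 is an RNA-binding protein that regulates translation in stem cells and in myeloid leukaemia. Il1rap is the co-receptor of IL-1 family cytokines, Cd93 a C-type lectin-like receptor, Cd33 a sialic acid-binding receptor (Siglec) and Il2ra the alpha chain of the IL-2 receptor. Cd44 binds hyaluronan and takes part in homing to the marrow, Cd47 is the signal that restrains phagocytosis through Sirpa, and Dpp4 is a surface peptidase that cuts chemokines such as Cxcl12. Alox5 is the enzyme that starts leukotriene synthesis.

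Of 18822 deposited cells, 15388 were kept. The WT libraries held 3030 of them (untreated) and 4187 (imatinib), and the CML libraries 3032 and 5139. The libraries differed in depth along with treatment, with a median of 3637.5 and 5160.5 UMIs per cell in the untreated WT and CML libraries and 1486 and 1198 in the imatinib ones. Levels are counts scaled to a fixed total (CPM), that is the UMIs of a gene per 1000000 UMIs summed over the cells named. Kit, a gene of the sort, was at 136 to 176 CPM in all 4 libraries, while Ly6a, which encodes Sca1, was at 192 and 95.8 CPM in the untreated WT and CML libraries and 49.6 and 51.0 CPM in the imatinib ones. Xist, an RNA of female cells, was at 2375 CPM in the untreated CML library and at 1.52 to 94.97 CPM in the others, while the Y-linked Ddx3y was at 1.504 CPM there and at 29.35 to 45.2 CPM in the others. Sex thus cannot be told apart from genotype in the untreated comparison, nor from treatment between the CML libraries. Of cell names, 1135 occurred in both WT libraries and 80 to 340 in each other pair of libraries. Cells with the same name in both WT libraries were about as alike as cells taken next in order (median correlation 0.314 against 0.315).

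The libraries also differed in their mix of cells. A cell is called marked for a class when it holds a UMI of at least 3 genes of that class's marker list. This is a description and not a cluster, a cell can be marked for several classes, and cells with many UMIs are marked more easily. All 8 neutrophil markers were detected in each library, and their summed level was 30.7 CPM in WT untreated and 59.4 in CML untreated against 6126 in WT imatinib and 9087 in CML imatinib. Neutrophil-marked cells numbered 3 and 4 in the untreated WT and CML libraries and 351 and 905 in the imatinib ones, although a lineage depletion should remove such cells; a further 12, 26, 430 and 680 cells held 2 of the markers. All 9 mast cell and basophil markers were detected in each library, with summed levels of 155, 1237, 827 and 1810 CPM and 18, 141, 44 and 232 marked cells in untreated WT, imatinib WT, untreated CML and imatinib CML. Granulocyte-monocyte progenitor (GMP) marks were on 34.3%, 80.0%, 40.7% and 78.1% of cells in the same order. Stem cell (HSC) marks were on 212 and 351 cells of the untreated WT and CML libraries and on 5 and 11 of the imatinib ones.

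The threshold for a difference was a ratio of 2-fold or more, for genes that reached 10 CPM and 30 UMIs in the library where they were higher. Between the untreated CML and WT libraries none of the 8 genes with enough UMIs met this rule in all cells, where 1.11% of all genes did; Il2ra had too low a level to be judged. The median log2 ratio of CML over WT was 0.11 for the 8 genes and 0.03 for all genes tested. Under imatinib, again 0 of 8 were 2-fold apart between CML and WT, where 4.03% of all genes were, and the median was -0.30 against 0.02. Between treatments the picture was another: in CML cells 2 of 8 genes were 2-fold apart between imatinib and no treatment (19.4% of all genes), and in WT cells 2 of 8 (15.1%). In both genotypes these were Msi2, lower with imatinib, and Alox5, higher with imatinib, although the Alox5 difference was not 2-fold higher in either genotype once mast and other mature-marked cells were left out. The 4 libraries enter several of these comparisons, so the comparisons are not independent of each other.

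**Figure D1:**
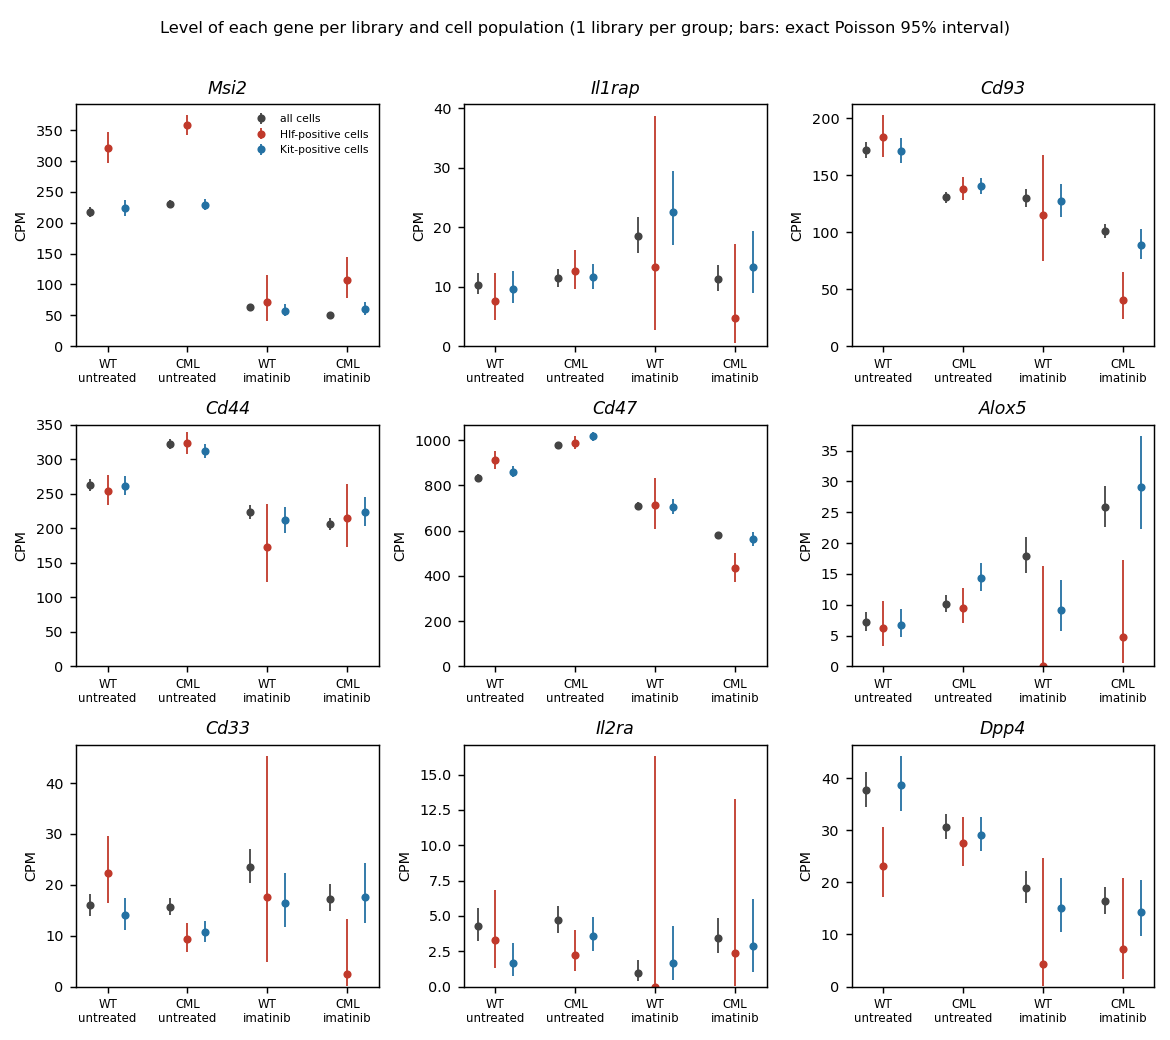
Level of each of the 9 genes (CPM, one panel per gene with its own vertical axis from 0) in the 4 libraries, for all cells, Hlf-positive cells and Kit-positive cells; bars are exact 95% Poisson intervals for counting error. Msi2 stands at 217 and 230 CPM in the untreated libraries and at 62.8 and 50.5 CPM in the imatinib ones, while Alox5 over all cells is highest in the CML imatinib library.

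Scaling bears on small ratios. With the trimmed mean of M-values (TMM) in place of the total, the median log2 ratio of all genes between untreated CML and WT cells moved from 0.03 to -0.14, and the share of higher genes among those 2-fold apart from 65.7% to 42.6%. For imatinib CML over imatinib WT the median moved from 0.02 to -0.23 and the share from 94.9% to 81.3%. For imatinib over untreated the median moved from 0.01 to -0.34 in CML and from -0.03 to -0.29 in WT, and the share from 59.1% to 28.6% and from 55.4% to 31.5%. Ratios below are on the total unless TMM is named.

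Msi2, the RNA-binding regulator, lies on the minus strand at chr11:88339382-88718513 of GRCm38. It was at 217 CPM (95% interval 210 to 226; 2860 UMIs) in WT untreated, 62.8 CPM (57.5 to 68.5; 518 UMIs) in WT imatinib, 230 CPM (224 to 237; 4897 UMIs) in CML untreated and 50.5 CPM (46.1 to 55.2; 482 UMIs) in CML imatinib. Both untreated libraries stood above both imatinib libraries. Imatinib cells had 4.55-fold less Msi2 than untreated cells in CML (log2 ratio -2.19, 95% interval -2.33 to -2.05) and 3.46-fold less in WT (-1.79, -1.93 to -1.66). The difference kept its size among cells of like depth: in cells of 1000 to 3000 UMIs the log2 ratio was -2.28 in CML and -2.15 in WT. It was -2.05 and -1.80 without the cells marked for mature classes, meaning neutrophil, mast, erythroid, T and NK, B or plasma cells. Within GMP-marked cells it was -1.84 in CML and -1.53 in WT, and within monocyte-marked cells -1.37 and -1.24.

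The Msi2 promoter is shown because Msi2 had the largest treatment difference of the 9 genes in all cells of the CML libraries; it is the RefSeq sequence of GRCm38.p6 from 250 bases before to 50 bases after the transcription start (chr11:88718180-88718479, minus strand). More than 1 promoter is listed for Msi2, and only 1 of them is shown. Capitals mark the GC box GGGCGG or its reverse complement.
Msi2 promoter: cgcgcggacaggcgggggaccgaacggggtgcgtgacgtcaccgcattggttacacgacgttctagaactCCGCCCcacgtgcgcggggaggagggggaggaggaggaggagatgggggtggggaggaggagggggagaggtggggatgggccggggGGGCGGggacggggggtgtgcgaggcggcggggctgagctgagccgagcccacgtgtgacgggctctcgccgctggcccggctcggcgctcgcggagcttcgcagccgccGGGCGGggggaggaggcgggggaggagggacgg
It is 76.0% G and C, against a median of 52.7% over all 32851 promoters of the table, and holds 3 GC boxes. A GC box on either strand occurs in 35.7% of all promoters and in at least 1 listed promoter of Msi2, Il1rap, Cd44, Cd47 and Alox5, out of 8 of the 9 genes matched by symbol. The other motifs searched on both strands were GAGGAAGT (PU.1; 3.20% of all promoters), TTCNNNGAA (STAT; 8.30%) and AGATAA (the GATA motif; 11.2%). The first 2 were in none of the 11 listed promoters of these genes, and AGATAA was in those of Cd44 and Dpp4.

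Between genotypes Msi2 differed little. Untreated CML cells held 1.06-fold more than WT cells (log2 ratio 0.08, 95% interval 0.01 to 0.15), but the ratio was -0.09 (-0.15 to -0.02) with TMM scaling and -0.05 in cells of 1000 to 3000 UMIs, so its direction is not settled. Inside marked classes untreated CML was the higher of the pair in several: HSC-marked cells had 370 CPM against 314 (log2 ratio 0.24, 0.06 to 0.42) and GMP-marked cells 173 against 146 (0.25, 0.13 to 0.36). Under imatinib the CML library had the lower level over all cells (log2 ratio -0.31, -0.50 to -0.13), and its GMP-marked cells did not stand apart from those of WT (-0.07, -0.28 to 0.15).

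Hlf encodes a transcription factor of blood stem cells, and cells with at least 1 Hlf UMI numbered 489 in WT untreated, 115 in WT imatinib, 654 in CML untreated and 115 in CML imatinib. Of the 9 other stem cell markers, 8, 8, 8 and 7 were higher in Hlf-positive than in Hlf-negative cells of those libraries. This check is weaker with imatinib, where some markers had very few UMIs in Hlf-positive cells. WT imatinib held 3 of Mecom, 1 of Procr and 25 of Meis1, and CML imatinib 5, 0 and 20. Msi2 was the member with the clearest Hlf pattern: its level in Hlf-positive cells was 1.63-fold that of Hlf-negative cells in WT untreated (log2 0.70, 95% interval 0.58 to 0.83), 1.87-fold in CML untreated (0.90, 0.82 to 0.99) and 2.24-fold in CML imatinib (1.16, 0.69 to 1.61). In WT imatinib, with 16 UMIs of Msi2 in Hlf-positive cells, the log2 ratio was 0.17 (-0.64 to 0.89). The CML imatinib value rests on 45 UMIs. Without the 5 largest Hlf-positive cells, all erythroid-marked, the level there was 86.3 rather than 107 CPM, against 47.9 in Hlf-negative cells. Without mature-marked cells it was 91.7 CPM from 14 UMIs, against 57.5 over all cells. Thinned to 500 UMIs it was 34.8 CPM from 2 UMIs, against 55.7 over all cells. Hlf-positive cells, too, had less Msi2 with imatinib: 321 CPM in WT untreated, 70.7 in WT imatinib, 358 in CML untreated and 107 in CML imatinib.

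**Figure D2:**
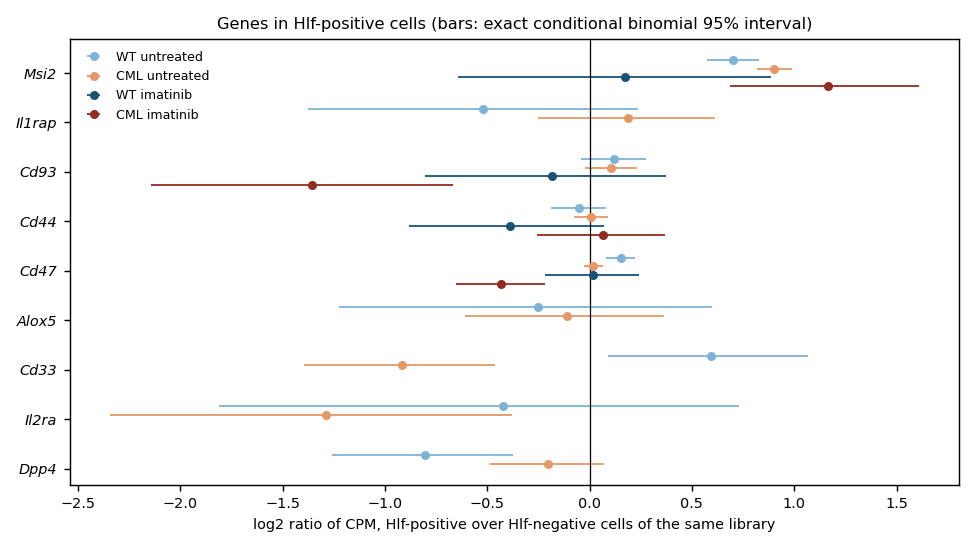
Log2 ratio of each gene's level in Hlf-positive over Hlf-negative cells of the same library, with exact 95% intervals for counting error. Msi2 lies above 0 in all 4 libraries, with an interval that clears 0 in 3 of them, while Cd33 lies above 0 in WT untreated (0.59) and below 0 in CML untreated (-0.91). The Msi2 point of CML imatinib rests on 45 UMIs in Hlf-positive cells, a part of them in a few large erythroid-marked cells.

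Among the receptors, Cd93 was lower in CML. It lies on the minus strand at chr2:148436640-148443563 of GRCm38. Cd93 was at 172 CPM (2261 UMIs) in WT untreated, 130 CPM (1073) in WT imatinib, 131 CPM (2782) in CML untreated and 101 CPM (964) in CML imatinib. Untreated CML cells had 76.0% of the WT level (log2 ratio -0.40, 95% interval -0.48 to -0.31), and imatinib CML cells were also below imatinib WT cells (-0.36, -0.49 to -0.24). The untreated difference was in the same direction with TMM scaling (-0.56), in cells of 1000 to 3000 UMIs (-0.52, -0.77 to -0.28), in Kit-positive cells (-0.29, -0.41 to -0.17) and in Hlf-positive cells (-0.41, -0.60 to -0.23). Kit-positive cells of 1000 to 3000 UMIs had 153 CPM in CML against 170 in WT, from only 67 and 97 UMIs. Hlf-positive cells of that depth had 135 against 178 CPM, from only 45 and 66 UMIs.

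By class, the untreated difference in Cd93 was spread over the progenitors. CML against WT was 143 and 260 CPM in monocyte-marked cells (log2 ratio -0.86, -1.01 to -0.70), 166 and 267 CPM in dendritic-marked cells (-0.69, -0.92 to -0.46) and 181 and 269 CPM in lymphoid-primed cells (-0.57, -0.72 to -0.41). GMP-marked cells had 151 against 218 CPM (-0.54, -0.64 to -0.43). HSC-marked cells had 128 against 154 CPM, with an interval that reaches 0 (-0.27, -0.53 to 0.00), and erythroid-marked cells 46.6 against 29.8 CPM (0.64, -0.03 to 1.37). With imatinib the classes read otherwise, and the part of any class in the imatinib difference was not tested. GMP-marked cells were level at 127 and 129 CPM (-0.02, -0.15 to 0.12), erythroid-marked cells of the CML imatinib library held 18.4% of its UMIs with only 4 UMIs of Cd93, and without the cells marked for mature classes the log2 ratio was -0.09 (-0.22 to 0.05).

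The share of cells with a Cd93 UMI followed the same order in the untreated pair. It was 39.0% of WT untreated, 19.0% of WT imatinib, 36.7% of CML untreated and 12.5% of CML imatinib cells, at very unequal depths. With every cell thinned to 500 UMIs, which left out none, the shares were 8.71%, 6.59%, 6.37% and 4.88%. Erythroid-marked cells, which should largely lack Cd93, had 13.01%, 0%, 13.3% and 1.77% before thinning (median depths 5659, 1107, 8322 and 2686.5 UMIs) and 3.25%, 0%, 2.05% and 0% after it. The thinned share over all cells was above that background in each library, with intervals that overlap in both WT libraries.

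Il1rap (plus strand, chr16:26581704-26730117 of GRCm38), a surface antigen of human CML stem cells, was at a low level here. It was at 10.3 CPM (136 UMIs) in WT untreated, 18.6 CPM (153) in WT imatinib, 11.4 CPM (242) in CML untreated and 11.2 CPM (107) in CML imatinib; WT imatinib stood above the other 3, whose intervals overlap. Untreated CML over WT was 0.14 on the log2 scale, with an interval of -0.17 to 0.45 that leaves the direction unresolved, and -0.03 with TMM scaling. In Hlf-positive cells the same ratio was 0.73 (-0.08 to 1.62) from 62 UMIs in CML and 16 in WT, and no difference was detectable at this depth. Under imatinib CML was below WT in all cells (-0.73, -1.10 to -0.36), in Kit-positive cells (-0.76, -1.47 to -0.08) and within GMP-marked cells (13.4 against 19.7 CPM; -0.56, -0.94 to -0.17). GMP-marked cells held 57.4%, 96.7%, 64.0% and 87.9% of its UMIs in untreated WT, imatinib WT, untreated CML and imatinib CML. The same cells held 47.0%, 91.0%, 52.9% and 73.4% of the UMIs of all genes in that order. In WT the imatinib library was 0.84 above the untreated one (0.50 to 1.19), and 1.23 above it in Kit-positive cells (0.66 to 1.81).

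Cd33 (minus strand, chr7:43524216-43544428 of GRCm38), a myeloid antigen, was the only one of the 9 genes 2-fold apart between the untreated genotypes in Hlf-positive cells: 1 of 7 genes with enough UMIs, where 3.39% of all genes were. Over all cells it was at 16.0 CPM (210 UMIs) in WT untreated, 23.5 CPM (194) in WT imatinib, 15.6 CPM (333) in CML untreated and 17.3 CPM (165) in CML imatinib. The untreated pair did not differ beyond counting error (log2 ratio -0.03, 95% interval -0.28 to 0.23). In Hlf-positive cells, however, it was at 22.2 CPM (47 UMIs) in WT untreated and 9.32 CPM (46 UMIs) in CML untreated, 2.39-fold lower in CML (log2 ratio -1.26, -1.87 to -0.64). The ratio was -1.30 with TMM scaling, -1.38 without cell names found in more than 1 library (36 UMIs in CML, 19 in WT) and -1.20 without cells marked for mature classes. In cells of 1000 to 3000 UMIs it was -1.32, but with only 9 UMIs in CML and 25 in WT. HSC-marked cells showed a ratio of the same sign, 9.08 against 19.0 CPM (-1.06, -1.93 to -0.16), and share cells with the Hlf-positive group. In lymphoid-primed cells, which held 53.3% of its UMIs in WT untreated and 55.6% in CML untreated, the level was 46.4 and 45.2 CPM (-0.04, -0.38 to 0.31).

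The promoter of Cd33 is shown beside that of Msi2 as the one whose gene differed by genotype in Hlf-positive cells (RefSeq, GRCm38.p6, chr7:43533122-43533421, minus strand). The window lies inside the Cd33 gene span given above and not at the upstream end of that span. None of the 4 motifs occurs in it, so it has no capitals, and 47.7% of its bases are G or C.
Cd33 promoter: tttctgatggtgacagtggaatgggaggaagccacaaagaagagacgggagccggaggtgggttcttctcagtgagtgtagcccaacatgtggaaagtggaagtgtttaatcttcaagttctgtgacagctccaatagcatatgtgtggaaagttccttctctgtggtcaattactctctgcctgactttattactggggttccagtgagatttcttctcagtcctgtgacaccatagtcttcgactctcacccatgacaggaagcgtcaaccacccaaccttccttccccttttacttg
With imatinib most Cd33 UMIs came from neutrophil-marked cells, 63.4% in WT and 60.6% in CML. Those cells had 150 CPM in WT imatinib (123 UMIs) and 61.0 CPM in CML imatinib (100 UMIs), a log2 ratio of -1.30 (-1.70 to -0.91). Imatinib over untreated was 0.56 in WT over all cells and -1.0 without the cells marked for mature classes, and 0.14 and -1.01 in CML. The direction of the treatment difference in Cd33 thus turned in WT when all mature-marked cells were left out. In CML no direction was resolved before that, with overlapping intervals of 14.8 to 20.1 CPM (imatinib) and 14.0 to 17.4 CPM (untreated).

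Il2ra (plus strand, chr2:11642807-11693193 of GRCm38) was close to the limit of detection. It was at 4.26 CPM (56 UMIs) in WT untreated, 0.970 CPM (8) in WT imatinib, 4.70 CPM (100) in CML untreated and 3.46 CPM (33) in CML imatinib. The untreated intervals overlap. With imatinib CML was the higher, with intervals of 2.38 to 4.86 CPM in CML and 0.419 to 1.91 CPM in WT. All these levels lie below the minimum of 10 CPM, so the gene was not counted. T and NK-marked cells held 35.7% of these UMIs in WT untreated (99.9 CPM, 20 UMIs) and 44.0% in CML untreated (143 CPM, 44 UMIs), a log2 ratio of 0.52 that spans 0 (-0.28 to 1.36). Mast-marked cells held 11% of them in CML untreated and 33.3% in CML imatinib. In Hlf-positive cells 7 UMIs were found in WT untreated, 0 in WT imatinib, 11 in CML untreated and 1 in CML imatinib. A count of 0 in the WT imatinib Hlf-positive cells allows a level of up to 13.25 CPM, above the level over all cells of any of the 4 libraries, so no absence can be read from it.

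Cd44 (minus strand, chr2:102811141-102901665 of GRCm38), the hyaluronan receptor, was higher in the untreated CML than in the untreated WT library, by less than 1.5-fold. It was at 262 CPM (3446 UMIs) in WT untreated, 224 CPM (1845) in WT imatinib, 322 CPM (6851) in CML untreated and 206 CPM (1965) in CML imatinib. Untreated CML over WT was 0.30 on the log2 scale over all cells (0.24 to 0.36), 0.35 in Hlf-positive cells (0.20 to 0.49) and 0.25 in Kit-positive cells (0.16 to 0.34). Over all cells the sign was the same with TMM scaling (0.13) and in cells of 1000 to 3000 UMIs (0.17, 0.02 to 0.33). In the Hlf-positive and Kit-positive cells of that depth, however, the ratios were -0.03 (-0.41 to 0.34) and 0.01 (-0.34 to 0.35), so no difference was detectable there. HSC-marked cells had 331 CPM in CML against 238 in WT (0.48, 0.28 to 0.68), and T and NK-marked cells 546 against 345 (0.66). Under imatinib the sign was the opposite, at -0.12 (-0.21 to -0.03).

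Cd47 (plus strand, chr16:49800533-49915010 of GRCm38), the signal against phagocytosis, was at 834 CPM (10974 UMIs) in WT untreated, 708 CPM (5841) in WT imatinib, 980.5 CPM (20868) in CML untreated and 579.8 CPM (5531) in CML imatinib. Untreated CML over WT was 0.23 (0.20 to 0.27), but 0.07 (0.03 to 0.10) with TMM scaling and -0.06 (-0.16 to 0.03) in cells of 1000 to 3000 UMIs, a choice that also changes which cells are compared. With all cells thinned to 500 UMIs it was 0.21 (0.10 to 0.32). Monocyte-marked cells had 1014 CPM in CML against 782 in WT (0.37, 0.30 to 0.45). Under imatinib CML was lower over all cells (-0.29, -0.34 to -0.24), in Hlf-positive cells (-0.72, -1.03 to -0.41) and in mast-marked cells (552 against 1114 CPM; -1.01, -1.27 to -0.75). Without the cells marked for mature classes the imatinib ratio was -0.09 over all cells and -0.04 in Hlf-positive cells (-0.42 to 0.34). Without the largest 5% of cells it was -0.09 in Hlf-positive cells (-0.46 to 0.28).

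Dpp4 (minus strand, chr2:62330073-62412231 of GRCm38), the chemokine-cutting peptidase, was at 37.7 CPM (496 UMIs) in WT untreated, 18.9 CPM (156) in WT imatinib, 30.7 CPM (654) in CML untreated and 16.4 CPM (156) in CML imatinib. Both imatinib libraries were the lower of their genotype, by a log2 ratio of -0.99 in WT (-1.26 to -0.73) and -0.91 in CML (-1.17 to -0.66), just short of 2-fold and past it with TMM scaling (-1.25 and -1.23). Untreated CML was below WT (-0.30, -0.47 to -0.12), with 29.3 against 40.7 CPM in GMP-marked cells (-0.47, -0.71 to -0.23). Hlf-positive cells did not follow: there the ratio was 0.25 with an interval over 0 (-0.23 to 0.75). The untreated difference was also smaller at like depth. In all cells of 1000 to 3000 UMIs CML had 41.6 CPM against 47.8 in WT (75 and 106 UMIs). Thinned to 500 UMIs the levels were 36.3 and 38.9 CPM (55 and 59 UMIs). In Kit-positive cells of 1000 to 3000 UMIs CML was the higher, at 59.3 against 57.8 CPM (26 and 33 UMIs). In the untreated WT library Dpp4 was lower in Hlf-positive than in Hlf-negative cells (-0.80, -1.26 to -0.38), and in CML untreated the same ratio was -0.20 (-0.49 to 0.07).

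**Figure D3:**
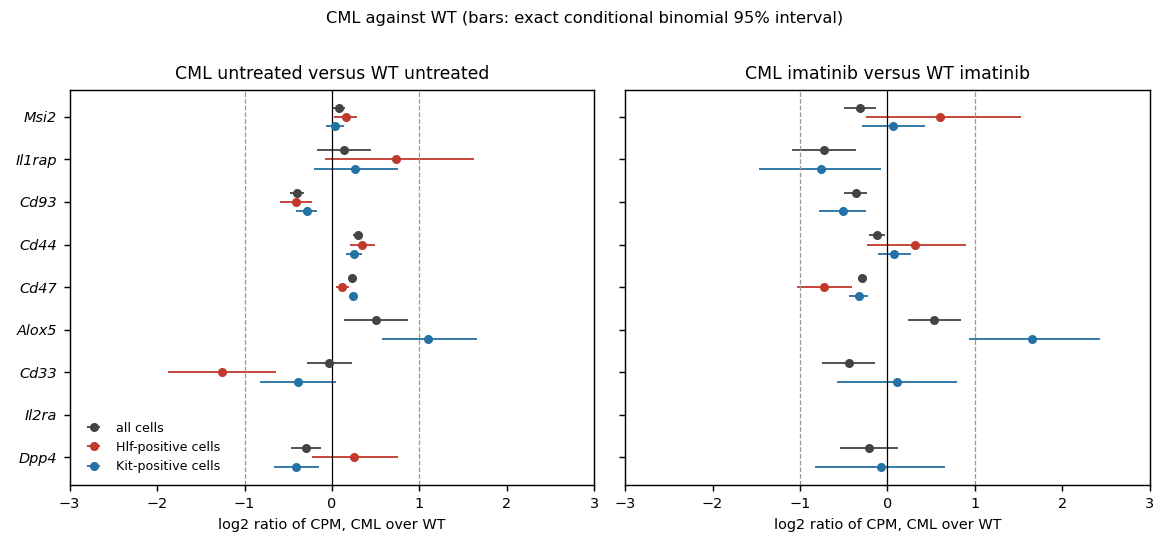
Log2 ratio of CML over WT for each gene, untreated and with imatinib, in all cells, Hlf-positive cells and Kit-positive cells, with exact 95% intervals for counting error; dashed lines mark a 2-fold difference, and genes under the minimum level are not drawn. Cd33 in untreated Hlf-positive cells (-1.26) and Alox5 in Kit-positive cells (1.09 untreated, 1.66 with imatinib) lie past the dashed lines.

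Alox5 (minus strand, chr6:116410077-116461178 of GRCm38) had much of its signal in a minor cell class. It was at 7.15 CPM (94 UMIs) in WT untreated, 17.8 CPM (147) in WT imatinib, 10.1 CPM (215) in CML untreated and 25.8 CPM (246) in CML imatinib. Each CML library stood above the WT library of the same treatment, by a log2 ratio of 0.50 untreated (0.14 to 0.86) and 0.53 with imatinib (0.23 to 0.84), and each imatinib library above the untreated one, by 1.35 in CML (1.08 to 1.62; 2.55-fold) and 1.32 in WT (0.94 to 1.71). In Kit-positive cells it was the gene that differed by genotype: 14.3 CPM in CML untreated (156 UMIs) against 6.71 in WT untreated (37), a log2 ratio of 1.09 (0.57 to 1.65), and 29.1 CPM in CML imatinib (61) against 9.21 in WT imatinib (22), a log2 ratio of 1.66 (0.93 to 2.43). That was 1 of 8 genes in each treatment, where 1.7% of all genes differed in the untreated pair and 7.62% in the imatinib pair.

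Mast-marked cells held 12.8% of all Alox5 UMIs in WT untreated, 59.9% in WT imatinib, 54.4% in CML untreated and 52.8% in CML imatinib, at 150, 392.1, 355 and 293 CPM. Neutrophil-marked cells held 26.5% of them in WT imatinib and 31.7% in CML imatinib, at 47.7 and 47.6 CPM. Without the cells marked for mature classes, untreated CML over WT was -0.37 over all cells (-0.84 to 0.10) and -0.18 in Kit-positive cells (49 UMIs in CML, 29 in WT). Imatinib over untreated was then 0.45 in CML (-0.13 to 1.0) and -1.17 in WT (-1.96 to -0.43). In imatinib Kit-positive cells 5 UMIs were left in CML and 4 in WT (1.06, -1.15 to 3.40). Over all imatinib cells, CML over WT was larger without the marked cells than with them, at 1.24 on the log2 scale from 40 and 20 UMIs. The part of mast and neutrophil cells in the Alox5 differences was not tested. In Hlf-positive cells Alox5 had 13, 0, 47 and 2 UMIs in untreated WT, imatinib WT, untreated CML and imatinib CML, too few in the imatinib libraries for a comparison.

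The promoter of Alox5 is shown as that of the gene with the highest ratio between genotypes in Kit-positive cells (RefSeq, GRCm38.p6, chr6:116461129-116461428, minus strand); capitals mark its single GC box, and 55.7% of its bases are G or C.
Alox5 promoter: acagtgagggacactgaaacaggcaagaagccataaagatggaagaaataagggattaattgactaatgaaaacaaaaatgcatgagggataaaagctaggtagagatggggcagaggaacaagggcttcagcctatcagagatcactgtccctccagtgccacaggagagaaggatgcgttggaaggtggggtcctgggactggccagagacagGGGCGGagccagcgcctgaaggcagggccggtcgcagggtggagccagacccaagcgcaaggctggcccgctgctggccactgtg
No match to the PU.1, GATA or STAT motifs is in this window.

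**Figure D4:**
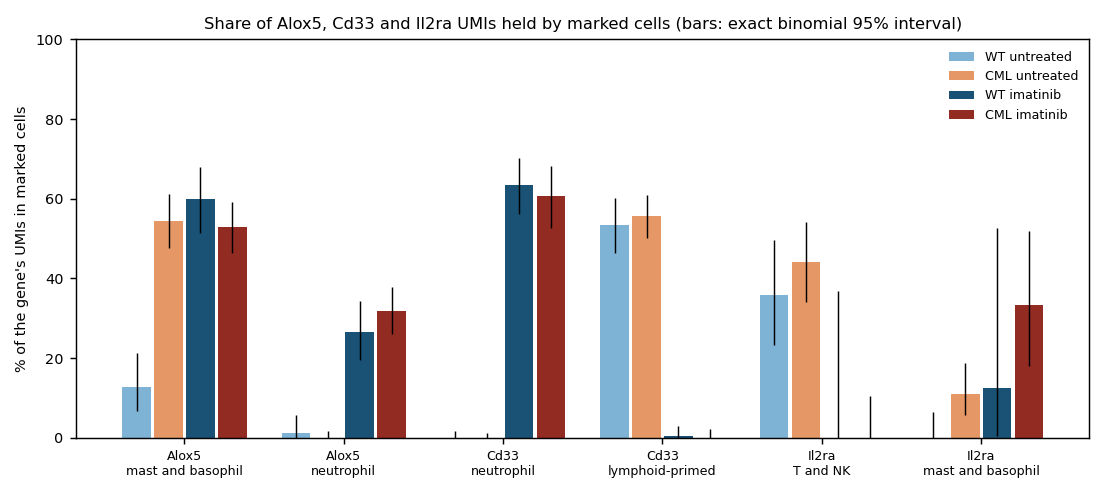
Percent of all UMIs of Alox5, Cd33 and Il2ra found in cells marked for a class, in each library. Mast-marked cells hold 12.8% of Alox5 UMIs in WT untreated and 52.8% to 59.9% in the other 3 libraries, and neutrophil-marked cells hold 63.4% and 60.6% of Cd33 UMIs in the WT and CML imatinib libraries.

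**Figure D5:**
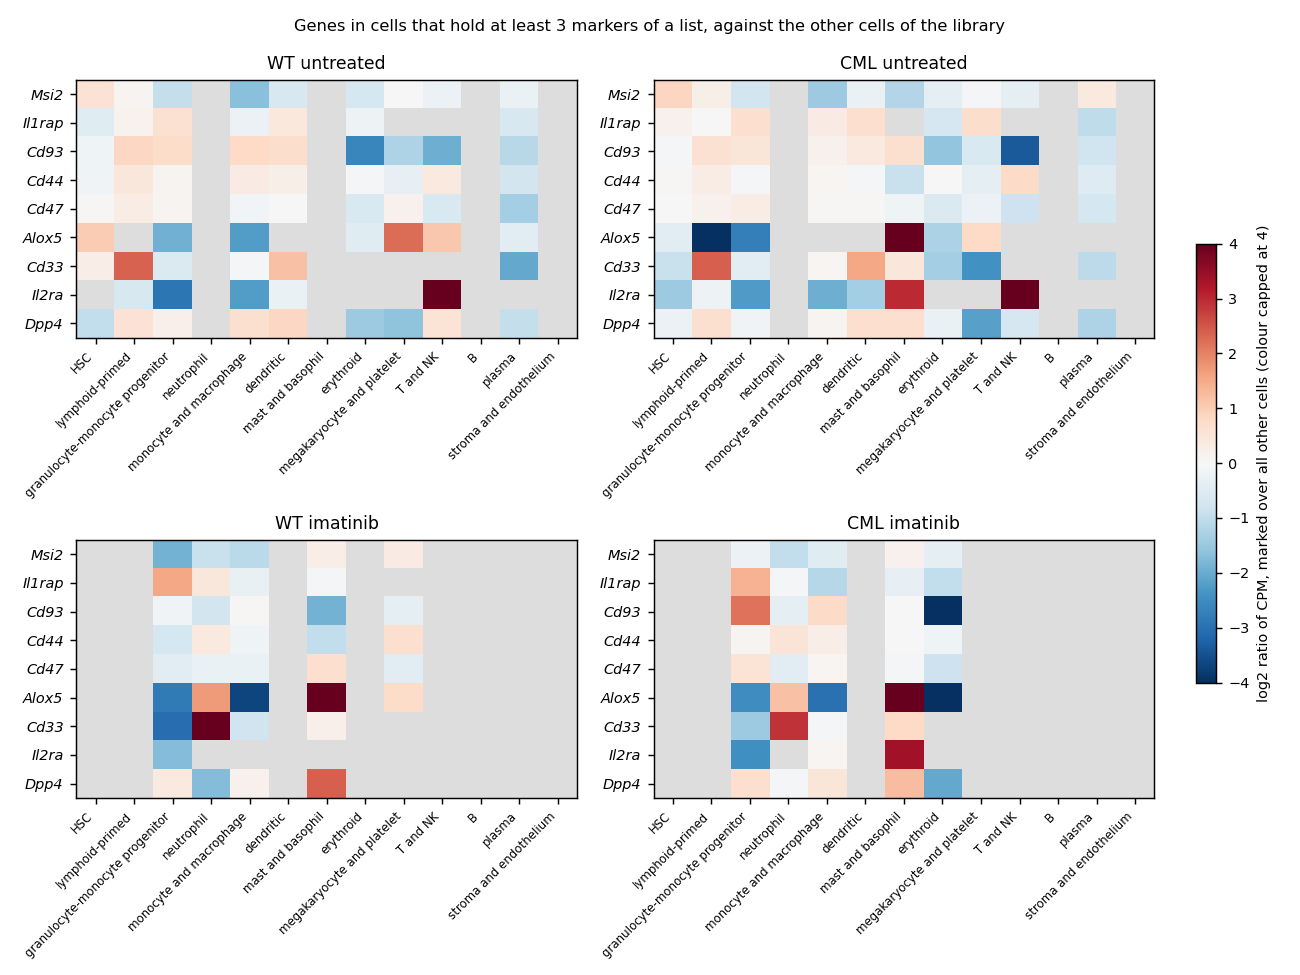
Log2 ratio of each gene's CPM in marked cells over the other cells of the same library, one heatmap per library, with colour limited to 4 in either direction; grey squares are classes with fewer than 20 marked cells or fewer than 3 UMIs of the gene. Alox5 in mast-marked cells and Il2ra in T and NK-marked cells stand above the other cells of their libraries wherever they are drawn.

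Within the Hlf-positive cells, 5 of 6 genes with enough UMIs were at least 2-fold lower in CML imatinib than in CML untreated, where 41.6% of all genes were 2-fold apart and 30.5% were lower. These were Msi2 (log2 ratio -1.74, 95% interval -2.20 to -1.31), Cd93 (-1.77, -2.56 to -1.08), Cd47 (-1.19, -1.41 to -0.97), Dpp4 (-1.94, -4.24 to -0.37, from 3 and 136 UMIs) and Il1rap (-1.40, -4.47 to 0.52, from 2 and 62 UMIs); Cd44 was at -0.59. The median log2 ratio of all genes tested was -0.49 here, against -1.57 for the 6. Dpp4 and Il1rap reached the minimum of 30 UMIs only through the untreated library, which held 4937999 UMIs in these cells against 419049, so the count of lower genes is a description and supports nothing. A few large cells weigh on this library: its 5 largest Hlf-positive cells, all erythroid-marked and of 21577 to 49460 UMIs, held 36.4% of the UMIs of the population, against 3.30% in WT untreated, 15.2% in WT imatinib and 3.53% in CML untreated. Without those 5 cells Msi2 was at 86.3 CPM rather than 107, Cd93 at 63.8 rather than 40.6, and Cd47 at 529 rather than 434. With the largest 5% of cells left out of each library, the ratios were -1.99 for Msi2, -0.94 for Cd93 and -0.47 for Cd47, so of these 3 only Msi2 stayed over 2-fold lower. Dpp4 and Il1rap were then at -2.29 and -1.15, each from 1 UMI in CML imatinib.

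In WT Hlf-positive cells, 2 of 6 genes were 2-fold lower with imatinib, where 26.3% of all genes were 2-fold apart and 22.9% were lower: Msi2 (-2.19, -3.0 to -1.48) and Dpp4 (-2.39, -7.72 to 0.15, from 1 and 49 UMIs). Between CML and WT under imatinib, 0 of the 3 genes with enough UMIs in Hlf-positive cells were 2-fold apart, where 33.7% of all genes were. Msi2 was at 0.60 there (-0.25 to 1.53), Cd44 at 0.32 (-0.24 to 0.90) and Cd47 at -0.72, a difference that did not hold without mature-marked or the largest cells. Cd93, with 17 and 26 UMIs, was below the minimum and had a ratio of -1.5 (-2.47 to -0.56). For Cd93 CML stayed the lower without mature-marked cells and without the largest cells, by a smaller ratio each time. Too few UMIs were left to judge its size. Without mature-marked cells Cd93 was at 85.1 CPM in CML against 119 in WT, from 13 and 24 UMIs. Without the largest 5% of cells it was at 71.5 against 136 CPM, from 12 and 24 UMIs.

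In Kit-positive cells, which numbered 1048, 873, 1228 and 731 in untreated WT, imatinib WT, untreated CML and imatinib CML, imatinib and untreated cells differed 2-fold in 3 of 7 genes in CML (22.1% of all genes) and 3 of 7 in WT (16.8%). Msi2 was lower in both, at -1.93 in CML (-2.20 to -1.67) and -1.96 in WT (-2.23 to -1.71). Dpp4 was lower in both, at -1.03 in CML (-1.62 to -0.48) and -1.36 in WT (-1.91 to -0.84). The third was Alox5 in CML (1.02, 0.57 to 1.46) and Il1rap in WT. Without mature-marked cells, Dpp4 in CML was at 19.0 CPM with imatinib against 29.7 untreated (23 and 276 UMIs). Alox5 in CML was then at -0.35 (5 and 49 UMIs), so of the 3 genes in CML only Msi2 stayed 2-fold apart.

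For each gene, the genes most like it were sought over 29 sums of marked cells by library, among 6524 genes; the sums share libraries and cells, so the correlations of log2 levels are a description. Msi2 was most like Gem (r = 0.907), Nr4a1 (0.894) and Rgs1 (0.887), which are genes of the immediate response to stimulation and its feedback; with each library's mean removed these were 0.520, 0.632 and 0.567. Cd93 was most like Igfbp4 (0.935), Rab31 (0.917) and Zfp422 (0.903). Alox5 was most like Fcer1a (0.861), which is itself one of the mast markers, then Tuba8 (0.847) and Gsn (0.844). Cd33 was most like Cd300lb (0.785), Sirpa (0.736) and Ccr1 (0.725), all receptors of myeloid cells. Genes like Cd47 included Morf4l1 (0.856) and Ccdc50 (0.855), and Dpp4 was most like Ccl4 (0.840), Map4k4 (0.808) and Sox4 (0.808). Cd44 was most like Zrsr2 (0.840), Coq10b (0.777) and Eps15l1 (0.774), and Il1rap like Ptrhd1 (0.766), Mfsd14a (0.724) and Ermp1 (0.702).

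The pathways around these genes were also read over all cells, where 1.11% of all genes were 2-fold apart between the untreated genotypes and 4.03% with imatinib. Of 18 genes of the IL-1 receptor family, 8 had enough UMIs between untreated CML and WT and 1 was 2-fold apart. It was Il1rl1, the receptor of IL-33 that pairs with Il1rap, at 11.2 CPM in WT untreated, 9.70 in WT imatinib, 32.7 in CML untreated and 32.8 in CML imatinib. CML over WT was 1.55 untreated (1.29 to 1.81) and 1.76 with imatinib (1.40 to 2.13), where again 1 of 8 genes of the family passed. Il1r1, the IL-1 receptor itself, had 23.5, 3.88, 35.9 and 5.14 CPM in these libraries as ordered. It was lower in both imatinib libraries, by a log2 ratio of -2.80 in CML and -2.60 in WT. Il1rl1 is also expressed by mast cells, whose markers were higher in CML in both pairs; their part in the result was not tested.

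Of 12 relatives and reported targets of Msi2, 1 of 8 was 2-fold apart between the untreated genotypes: Hes1, a Notch target, with a level of 111 CPM in WT cells against 54.6 in CML (-1.03, -1.14 to -0.91). With imatinib the WT library had 1.33 CPM of Hes1 and the CML library 6.499 CPM, below the minimum for that comparison. Numbl was higher in CML under imatinib, as 1 of 8 genes (11.8 against 5.46 CPM; 1.12, 0.61 to 1.65). Hoxa9, which Msi2 has been reported to regulate, was at 49.7, 21.8, 44.4 and 27.5 CPM in untreated WT, imatinib WT, untreated CML and imatinib CML.

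Of 16 genes around hyaluronan, homing and Cd44, 1 of 10 was 2-fold apart between the untreated genotypes (1.11% of all genes) and 1 of 12 with imatinib (4.03% of all genes). The first was Cd74, the invariant chain, with 43.1 CPM in WT against 15.9 in CML (-1.44, -1.63 to -1.24). The second was Spp1, which encodes the Cd44 ligand osteopontin, at 15.1 CPM in CML imatinib and 7.52 in WT imatinib (1.01, 0.57 to 1.46). Of 11 phagocytosis signals, 0 of 6 were 2-fold apart untreated and 1 of 8 with imatinib: Cd24a, at 566 CPM in CML imatinib and 269 in WT imatinib (1.07, 1.0 to 1.15). Cd24a is also expressed by erythroid precursors, whose markers summed to 816, 94.6, 1017 and 3466 CPM in untreated WT, imatinib WT, untreated CML and imatinib CML; their part in the result was not tested. Sirpa, the receptor for Cd47, had 25.3, 85.9, 26.6 and 68.7 CPM in that order, higher in both imatinib libraries.

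Of 18 leukotriene pathway genes, 0 of 9 were 2-fold apart between the untreated genotypes and 0 of 7 with imatinib. Alox5ap, the partner of Alox5, was at 438, 632, 475 and 446 CPM in untreated WT, imatinib WT, untreated CML and imatinib CML. Lta4h, a hydrolase of the pathway, was at 386, 990, 379 and 726 CPM. Pla2g4a, the phospholipase that frees the substrate, was 0.80 lower on the log2 scale in CML than in WT with imatinib, and Alox8 was higher in CML in both pairs (0.49 untreated, 0.66 with imatinib). Alox5ap and Lta4h did not follow the genotype ratios of Alox5, with CML over WT at 0.12 and -0.50 for Alox5ap and -0.03 and -0.45 for Lta4h, untreated and with imatinib.

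Of 14 Dpp4 relatives and substrates, 0 of 6 were 2-fold apart untreated and 1 of 7 with imatinib. This was Cxcl12, the marrow niche chemokine, with 245 CPM (2339 UMIs) in CML imatinib and 1.27 to 1.82 CPM in the other 3 libraries. Cxcl12 is made by stromal cells and is itself on the list of stromal markers. These summed to 350.4 CPM in CML imatinib and 78.2 to 133 CPM in the others, but the 350.4 CPM includes the 245 CPM of Cxcl12 itself. Stroma-marked cells numbered 2 in each WT library and 12 in each CML library. The part of stromal cells in the result was not tested. Of 11 Cd93 relatives and ligands, 0 of 3 were 2-fold apart untreated (1.11% of all genes) and 2 of 4 with imatinib (4.03% of all genes): Igfbp7, higher in CML (15.4 against 1.82 CPM), and Thbd, lower (3.77 against 10.1 CPM). Igfbp7 is also expressed by stroma and endothelium, but the sum of their markers in CML imatinib was mostly Cxcl12, as given above. The part of these cells in the Igfbp7 result was not tested. No gene passed among 13 genes of IL-2 receptor signalling (0 of 9 in each pair) or 8 Siglecs (0 of 1 and 0 of 2).

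Of 33 further reported dependencies of CML stem cells in the files, 0 of 24 with enough UMIs were 2-fold apart between the untreated genotypes and 0 of 26 with imatinib. Their median log2 ratio of CML over WT was 0.18 untreated, against 0.03 for all genes, and -0.10 with imatinib, against 0.02. Between imatinib and untreated cells, 4 were higher and 7 lower of 28 in CML, and 4 higher and 4 lower of 27 in WT, or 39.3% and 29.6% of those tested against 19.4% and 15.1% of all genes. Kdm6b, a histone demethylase, was at 37.7, 10.7, 62.9 and 15.2 CPM in untreated WT, imatinib WT, untreated CML and imatinib CML, so that the untreated libraries stood above the imatinib ones, as for Msi2.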

How the data were processed

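Single-cell RNA was measured in 4 LSK libraries, 1 per group. The reads were processed with Partek 8.0 and Bowtie 1.1.1 on GRCm38 (mm10), per the submitters' processing notes. The deposited values are a signal: each cell's UMI counts divided by its total and multiplied by 1 constant. Dividing by a cell's smallest nonzero value gave back whole UMIs for 100% of values (tolerance 0.02), and levels were computed as CPM of UMIs summed over cells. The table headers and labels place 1 table with each group. Cells with at least 500 UMIs, at least 200 genes and at most 20% mitochondrial UMIs were kept; no doublet caller was run. Hlf-positive and Kit-positive cells hold at least 1 UMI of the gene.

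Ratios carry exact conditional binomial (Clopper-Pearson) 95% intervals and levels exact Poisson ones, both for counting error only. A count of 0 allows up to 3 UMIs. The 9 genes, the pathway and marker lists and the naming rules were chosen with earlier results of these data known. All 9 genes are named; from each pathway list, at most 4 genes with the largest absolute ratio of CML over WT in either treatment (10 CPM and 30 UMIs in the higher library) may be named; by likeness, the 3 genes of highest correlation on log2(CPM + 1) among those with a mean of at least 20 CPM. Each header holds 1 cell name more than there are value columns, so names were read at both positions and used only to look for shared cells. Some genes that these rules name are not reported here. Alternatives covered depth, scaling, cell sets, thresholds and shared cell names; no test between groups was possible with 1 library each. The interval and call routines were tested on simulated data. Promoters came from RefSeq (GRCm38.p6) and gene positions from GENCODE. Tools were Python 3.11.15, numpy 2.4.6, scipy 1.17.1, pandas 2.3.3, matplotlib 3.10.9, R 4.3.3 and edgeR 4.0.16, used for TMM factors only.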

Additional observations from a re-analysis of the deposited data

Results flagged for a closer look

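For 3 of the 9 genes, CML over WT had opposite directions untreated and with imatinib over all cells with both intervals clear of 0; with 1 library per group, the difference between the 2 ratios was not tested. For Msi2 the log2 ratio was 0.08 untreated and -0.31 with imatinib, a difference of -0.40. For Cd44 it was 0.30 and -0.12, a difference of -0.42. For Cd47 it was 0.23 and -0.29, a difference of -0.52. In cells of 1000 to 3000 UMIs the ratios of Msi2 were -0.05 untreated and -0.18 with imatinib, and those of Cd47 -0.06 and -0.24, so both had the same direction there, while those of Cd44 were 0.17 and -0.11. With TMM scaling the ratios of Msi2 were both below 0 (-0.09 and -0.55). The ratios of Il1rap also had opposite signs (0.14 and -0.73), but the untreated interval reaches 0.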

How the results depend on the processing

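Counts of genes 2-fold apart were recomputed under 13 alternatives, of which leaving out the 5% of cells with the most UMIs and leaving out cell names found in 2 libraries were chosen after seeing the data. The share of all genes past the same rule in each alternative is not printed beside these counts. The counts are therefore a description and are not read as a result about these genes as a set. Of 152 counts, 107 stayed within 1.5 times and 45 did not; of 1090 single-gene ratios, 867 stayed inside the interval of the ratio as reported. In all, 101 ratios changed sign, 17 of them among the 718 whose reported interval lies clear of 0, and 4 of them for genes counted as 2-fold apart. Msi2, lower with imatinib, remained among the counted genes in every comparison of treatments under every alternative. In cells of 1000 to 3000 UMIs the count went from 1 to 0 for untreated CML over WT in Hlf-positive and in Kit-positive cells and for imatinib CML over WT in Kit-positive cells, and for CML imatinib over untreated from 5 to 3 (Hlf-positive) and 3 to 1 (Kit-positive). Thinning to 500 UMIs gave 0 in the same 3 genotype comparisons, 2 and 1 for CML imatinib over untreated in Hlf-positive and Kit-positive cells, and 1 in each of these populations of WT. Without cells marked for mature classes both Kit-positive genotype counts were 0, and CML imatinib over untreated gave 2 (Hlf-positive) and 1 (Kit-positive). With TMM scaling the Kit-positive genotype counts were 0 untreated and 2 with imatinib, and CML imatinib over untreated gave 4 over all cells and 8 in Hlf-positive cells. A minimum of 50 CPM and 50 UMIs gave 0 in the 3 genotype comparisons that had counted 1 gene, 3 for Hlf-positive CML imatinib over untreated, and 1 in the other 5 comparisons of treatments. A threshold of 1.5-fold gave 1 and 2 for imatinib CML over WT (all cells; Hlf-positive and Kit-positive alike), 2 for the untreated Hlf-positive pair, 5 and 6 for CML imatinib over untreated (all, Kit-positive), and 4 for WT over all cells. For imatinib CML over WT in Hlf-positive cells the count was 1 with at least 1000 UMIs per cell, with the mean of single-cell CPM and without shared names. At least 2 UMIs of Hlf gave 2 in CML and 1 in WT for imatinib over untreated, and leaving out the largest 5% of cells gave 3 in CML. For WT imatinib over untreated, the mean of single-cell CPM and the omission of shared names each gave 4 over all cells, and the latter 1 in Hlf-positive cells. The 4 were those of Il1rap in thinned Hlf-positive cells, CML imatinib over untreated (0.51, from 1 and 4 UMIs), and of Alox5 without mature-marked cells: -0.18 and -0.35 in Kit-positive cells (CML over WT untreated; CML imatinib over untreated) and -1.17 over all WT cells. In Hlf-positive and Kit-positive cells, TMM moved the share of higher genes among those 2-fold apart from 73.8% to 57.1% and 79.6% to 45.6% (imatinib CML over WT), 26.6% to 9.10% and 51.1% to 22.9% (CML imatinib over untreated), 13% to 4.95% (Hlf-positive) and 48.7% to 28.3% (WT imatinib over untreated), and 73.0% to 51.0% for Kit-positive untreated CML over WT; the mean of single-cell CPM gave 81.6% over all cells and 58.3% in Kit-positive cells for imatinib CML over WT. The cause of these changes was not tested. By construction some alternatives leave fewer cells and UMIs, and so fewer genes above the minimum. Others, such as TMM scaling and the changed thresholds, keep every cell. No paired analysis was possible because each group is 1 library and the labels give no replicate numbers. Depth limits the imatinib Hlf-positive cells most, where 3 UMIs stand for 13.25 CPM in WT and 7.16 CPM in CML.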
